A study of Oryza sativa Japonica Group with 4 samples.

Results

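The rice gene Os02g0517531 (given as gene:Os02g0517531 in the tables) was described across fertile and sterile anthers. It is the gene that the study names as a *Mei2-like* protein gene, and an exon of it holds the T-DNA of the insertion line from which the semi-sterile mutant *sstl* came. The rule took this row and every row whose name contains MEI2. It found 1 gene row of 35825, because 0 row names contain MEI2. The tables give this gene by its RAP-DB ID alone, so its identity as a *Mei2-like* gene comes from the study and not from a name in the tables.

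Anthers of the japonica variety Tainung 67, grown in a chamber, were sequenced as 4 libraries, 1 for each combination of fertility and stage. The plants with fertile panicles (*SSTL-F*, labelled control) and those with sterile panicles (*sstl-s*, labelled as the semi-sterile mutant) were both progeny of *sstl*, so all came from the same transformed line. The stages were the young microspore stage (YM) and the late pollen mitosis stage (LpM), when the sperm cells form in fertile anthers. The number of plants behind a library is not given in the sources used here. The sterility did not follow the T-DNA in that line, and the study typed its semi-sterile plants, named *sstl*, as without the insertion. Plants of both groups sequenced here descend from *sstl*, so by this typing the insertion is not expected in them. The labels do not give their genotype at the insertion.

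Mei2 was first known from fission yeast, where this RNA-binding protein is needed to start and complete meiosis. In growing yeast cells it is held inactive by a kinase and by TOR signalling. Plants hold a family of Mei2-like proteins with RNA recognition motifs. In *Arabidopsis* the family acts in meiosis and in vegetative growth, and a family member binds RAPTOR, a subunit of the TOR kinase complex. The rice member PLASTOCHRON 2 sets the pace of leaf initiation, and its maize counterpart is terminal ear1. The RefSeq annotation of rice lists 6 genes with a synonym of the form OML, a symbol of this family. Of these, 3 lie on chromosome 2, the chromosome that the ID of Os02g0517531 also gives. RefSeq does not pair these genes with RAP-DB IDs, so only the member that the tables give by name could be read beside Os02g0517531.

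The levels of Os02g0517531 crossed between the genotypes. In *SSTL-F* the gene had 9094 reads at YM and 8212 at LpM, and in *sstl-s* it had 7807 reads at YM and 9515 at LpM. Total counts were 10161675 to 11559430 per library, and edgeR's TMM method was used to scale them to CPM, the counts per 1000000 of the scaled total. On this scale the gene stood highest in fertile anthers at YM, at 937 CPM (95% counting interval 918 to 956). Sterile anthers at LpM followed with 848 CPM (831 to 865), then fertile anthers at LpM with 728 (712 to 744) and sterile anthers at YM with 640 (626 to 654). The fertile early and the sterile late library were thus the high pair, and no interval overlapped that of its neighbour in this order. These intervals are exact Clopper-Pearson intervals and cover counting error only. With 1 library per group, no difference here has a replicate check and no p-value is given. In whole anthers, fewer cells of a type and less RNA per cell cannot be told apart.

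The order inside each pair depended on the scale, but the pairs did not. In the deposited RPKM, a level per length, the gene had 183 in sterile anthers at LpM, 178 in fertile anthers at YM, 137 in sterile anthers at YM and 134 in fertile anthers at LpM. In the deposited TPM, also a level per length, the order was that of the CPM. The fertile anthers had 388 TPM at YM and 297 at LpM, and the sterile anthers 285 and 358.

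**Figure D1:**
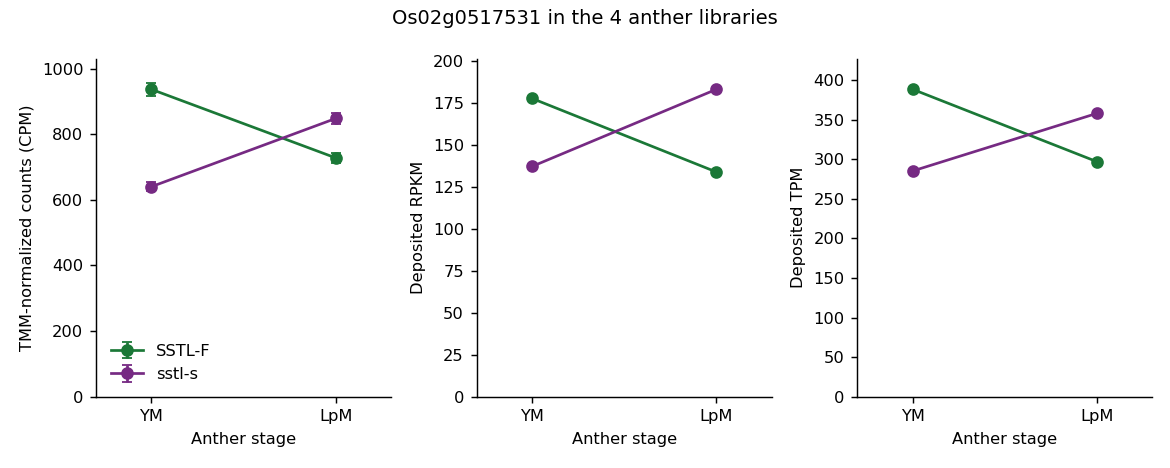
Level of Os02g0517531 at YM and LpM in *SSTL-F* (green) and *sstl-s* (purple), as TMM-normalized counts in CPM with 95% counting intervals, as deposited RPKM and as deposited TPM. On each scale the fertile line goes down, the sterile line goes up, and the lines cross.

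Os02g0517531 was an abundant transcript in each library. Its share of all counted reads in fertile anthers was 0.0895% at YM (95% interval 0.0877 to 0.0914) and 0.0713% at LpM (0.0697 to 0.0728). In sterile anthers the share was 0.0675% at YM (0.0660 to 0.0691) and 0.0859% at LpM (0.0842 to 0.0876). By number of reads the gene ranked 55 and 92 of 35825 rows in fertile anthers and 76 and 63 in sterile anthers, at YM and LpM. By TPM, where length no longer counts, the ranks were 279 and 399, and 458 and 310. The TPM of the gene was 19.4 to 28.6 times the median over the expressed genes of the same library. Expressed here means 10 or more counts in any of the libraries, which 24543 genes met.

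The related gene PLASTOCHRON 2 had 0 reads in all 4 libraries, which allows up to 3 counts in a library. That is 0.260 to 0.295 CPM of the total before TMM scaling. This gene was not taken by the rule and was added once the tables were open. RefSeq lists PLA2 and OML1 as synonyms of a single gene. Of the Mei2-like genes that could be read, Os02g0517531 was thus among the genes of most reads in every library, and PLASTOCHRON 2 was not detectable at this depth.

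At YM the gene was 1.46-fold higher in *SSTL-F* than in *sstl-s*, a log2 fold-change of 0.55 (95% counting interval 0.51 to 0.59). This is below 2-fold, the line drawn here for a difference. At this stage 4.24% of expressed genes were at least 2-fold higher and 8.21% at least 2-fold lower in fertile anthers. Of all expressed genes, 27.3% lay at least as far from 0 as Os02g0517531. Low counts widen that spread, and among the 2659 genes with at least 1000 counts on average, called abundant here, 10.1% did. Of these abundant genes, 7.60% were as far above 0. The median over the abundant genes was 0.17 at YM, against 0.03 for all expressed genes. Measured from the abundant genes, the value of Os02g0517531 was 0.38. It was 0.26 with quantile normalization.

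At LpM the gene was 1.17-fold higher in *sstl-s*, a log2 fold-change of -0.22 (-0.26 to -0.18) for fertile over sterile anthers. At LpM, 6.58% of expressed genes were at least 2-fold higher and 4.45% at least 2-fold lower in fertile anthers. A value as far from 0 was common here, in 60.2% of expressed and 40.8% of abundant genes, and 19.1% of abundant genes were as far below 0. With the deposited RPKM the value was -0.45, further from 0.

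From YM to LpM the gene had a log2 change of -0.36 (-0.41 to -0.32) in *SSTL-F*, 1.29-fold lower at LpM. In *sstl-s* the change was 0.41 (0.36 to 0.45), 1.33-fold higher at LpM. The background of these changes differed. In fertile anthers 12.0% of expressed genes were at least 2-fold higher and 4.95% at least 2-fold lower at LpM, and in sterile anthers 7.39% and 4.51% were. A change as far from 0 as that of Os02g0517531 was found in 48.9% of expressed genes in fertile anthers, and in 34.7% in sterile anthers. Among abundant genes the shares were 32.2% (22.0% in the direction of the gene) in fertile anthers and 14.0% (8.88%) in sterile anthers. The change in sterile anthers was 0.14 with quantile normalization, and that in fertile anthers was -0.20 when measured from the abundant genes.

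**Figure D2:**
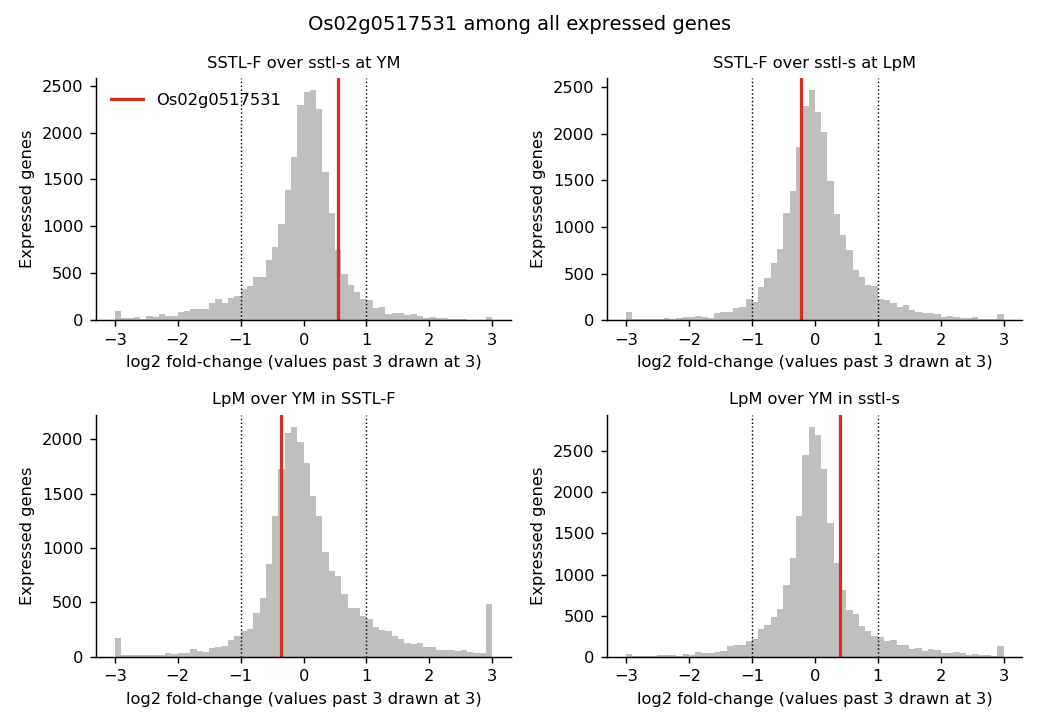
Histograms of the log2 fold-change of 24543 expressed genes in each of the 4 contrasts (values past 3 drawn at 3), with 2-fold as dotted lines. The red line is Os02g0517531, at 0.55, -0.22, -0.36 and 0.41, inside 2-fold in each panel.

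The stage change of Os02g0517531 differed by -0.77 (95% counting interval -0.83 to -0.71) between the genotypes, as fertile minus sterile. A difference at least as large in this direction was found in 7.32% of expressed and 4.59% of abundant genes. The sign pattern was counted with the counting intervals, which low counts widen, so its shares are not on the same line as these. A gene lower at LpM in fertile and higher at LpM in sterile anthers, with both counting intervals off 0, was found in 1.78% of expressed genes, against 1.45% for the reverse. Among abundant genes these shares were 7.63% and 2.29%. A gene higher in fertile anthers at YM and lower there at LpM, again with both intervals off 0, was found in 3.10% of expressed and 11.3% of abundant genes. Both patterns together were found in 0.632% of expressed genes (155 genes) and 2.52% of abundant genes (67 genes). The 4 contrasts share their libraries, so these counts describe a single pattern and not separate results.

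The named genes closest in profile were sought over the 4 libraries. Likeness was the Euclidean distance between log2 CPM profiles centred on each gene's mean, among 4420 rows that carry a gene name and hold at least 500 counts in all. The smallest distance, 0.0527, was that of aberrant growth and death2, against a median of 0.519 over these rows. In *Arabidopsis*, AGD2 is an aminotransferase of lysine synthesis. ALLENE OXIDE CYCLASE, an enzyme of jasmonate synthesis, was next at 0.0787. Ferrochelatase 1, an enzyme of haem synthesis, lay at 0.101. SERINE CARBOXYPEPTIDASE 49, of a protease family, lay at 0.102, and Sec14-nodulin domain-containing protein 4, with a lipid-binding Sec14 domain, at 0.109.

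The counts of aberrant growth and death2 were 972 and 897 in fertile anthers and 869 and 1012 in sterile anthers, at YM and LpM. Those of ALLENE OXIDE CYCLASE were 1179 and 1112 in fertile and 1070 and 1224 in sterile anthers. Each of the 5 genes had its highest CPM in fertile and its lowest in sterile anthers at YM. The log2 fold-changes of fertile over sterile anthers lay between 0.42 and 0.63 at YM, and between -0.23 and -0.10 at LpM. They were chosen for this likeness, so their values are a description.

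**Figure D3:**
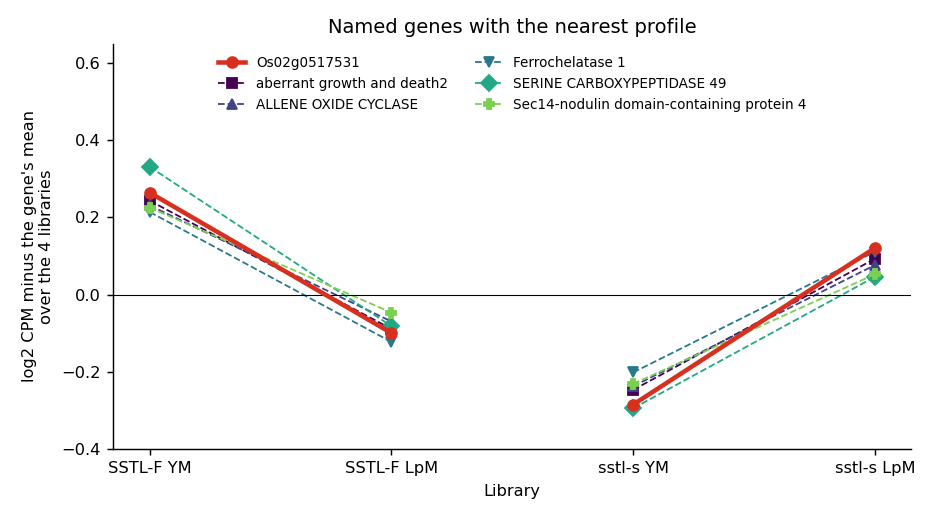
Log2 CPM of Os02g0517531 (red) and of the 5 named genes nearest to it, each minus its own mean over the 4 libraries, with lines joining the stages of a genotype. All 6 profiles are highest in *SSTL-F* YM and lowest in *sstl-s* YM.

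The genes around Os02g0517531 in the gene order of the tables were read next. The window of 15 rows on each side was set after values had been seen, and 16 of these 30 rows were expressed. Their median log2 fold-change, fertile over sterile, was 0.15 at YM and 0.13 at LpM, so the median did not change sign between the stages as Os02g0517531 did. At YM the counting interval lay above 0 for 4 of the 16 and below 0 for 1, against 24.1% and 17.5% of all expressed genes. At LpM the numbers were also 4 and 1, against 22.2% and 20.8%. At YM 1 of the 16 was at least 2-fold higher and 2 lower, against 4.24% and 8.21%. At LpM 4 were higher and 0 lower, against 6.58% and 4.45%. These 4 had few counts at LpM, 17 to 46 in fertile and 4 to 20 in sterile anthers.

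The nearest expressed row before the gene, Os02g0517300, had 1572 and 1779 counts in fertile anthers and 1848 and 1755 in sterile anthers, at YM and LpM. Its log2 fold-changes of 0.10 (just below 0 to 0.19) for YM and 0.01 (-0.08 to 0.11) for LpM have intervals that include 0. The next row after the gene, Os02g0517564, had 13 and 17 counts in fertile and 4 and 12 in sterile anthers. The log2 fold-change of this row at YM was 1.77 with a wide interval of 0.34 to 4.10, while the value for LpM was 0.46 (-0.66 to 1.69). Whether this row overlaps Os02g0517531 and whether the counting used strand are not given in the sources used here, so reads of the pair may not be separable. Os02g0516600, picked from the window after values were seen, had 0.28 (0.15 to 0.41) at YM, with the fertile anthers higher. At LpM it had 0.03 (-0.10 to 0.16). The row with an interval below 0 at YM was curly flag leaf1, at -1.38 (-2.51 to -0.49). It had 12 counts in fertile and 41 in sterile anthers at YM.

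**Figure D4:**
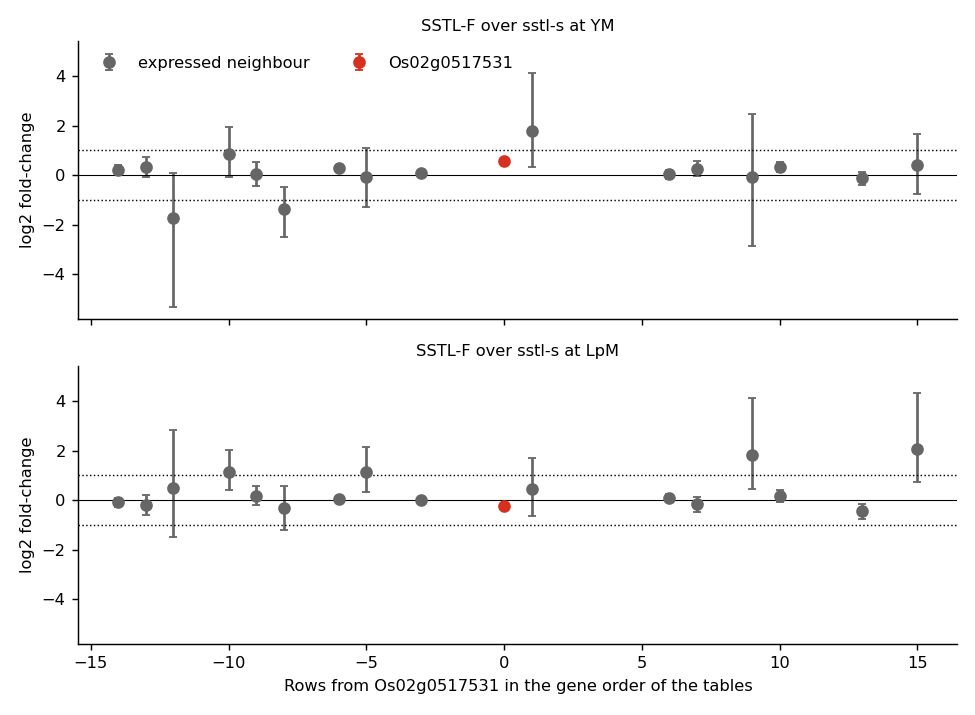
Log2 fold-change between genotypes (*SSTL-F* over *sstl-s*) at YM and LpM for the expressed rows within 15 rows of Os02g0517531 (red), with 95% counting intervals and 2-fold as dotted lines. Wide intervals belong to rows with few counts, such as the next row with 4 to 17 counts.

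Genes of the TOR complex and GSK3-like kinases, growth signalling genes to which the family is linked, were matched by name in 8 rows, all expressed. None was 2-fold different between genotypes. Of the 8, 6 were abundant as defined above, and interval calls rise with depth, so the abundant genes are given as a second background. The median log2 fold-change of the list, fertile over sterile, was 0.24 at YM, against 0.03 for all expressed and 0.17 for abundant genes. At LpM it was 0.10, against -0.01 for all expressed and 0.01 for abundant genes, and -0.13 with the deposited RPKM. At YM 4 of the 8 had an interval above 0 and 0 below, against 24.1% and 17.5% of expressed genes and 60.9% and 16.5% of abundant genes. At LpM 3 lay above and 1 below, against 22.2% and 20.8% of expressed and 37.3% and 33.7% of abundant genes. Across the stages, the intervals of 1 and 6 of the 8 lay above and below 0 in fertile anthers, against 23.2% and 25.8% of expressed and 22.3% and 58.0% of abundant genes. In sterile anthers they were 1 and 4, against 20.1% and 18.6% of expressed and 31.0% and 34.9% of abundant genes. None of the 8 was lower at LpM in fertile and higher at LpM in sterile anthers with both intervals off 0, the course of Os02g0517531.

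The TOR kinase itself (target of rapamycin) had 5204 and 4280 counts in fertile anthers and 4813 and 3977 in sterile anthers, at YM and LpM. It was higher in fertile anthers at YM, at 0.44 (0.39 to 0.50). Its log2 change from YM to LpM was -0.50 (-0.56 to -0.44) in fertile and -0.15 (-0.22 to -0.09) in sterile anthers, so both genotypes had less at LpM, unlike Os02g0517531. RAPTOR2 had changes of -0.52 (-0.63 to -0.41) in fertile and -0.04 (-0.14 to 0.07) in sterile anthers. The TOR kinase and RAPTOR2 were picked from the list after values were seen. No row carries YTH as a word of its name, the domain by which a fission yeast protein removes meiotic transcripts and to which Mei2 is opposed.

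Genes of meiosis and recombination, the process that Mei2 drives in yeast, were matched in 11 rows by the symbols sought, all expressed. Of these rows, 1 is MSP1-like1, a receptor-like kinase named after a gene of the list. At YM the median log2 fold-change, fertile over sterile, was 0.04, and it was -0.10 with library size only and with the deposited RPKM. At YM 0 of the genes were at least 2-fold higher and 1 at least 2-fold lower in fertile anthers, against 4.24% and 8.21% of all expressed genes, so 1 of 11 was near the background. At LpM the median was -0.31, with 0 at least 2-fold higher and 4 at least 2-fold lower, against 6.58% and 4.45% of all expressed genes. The 4 were RAD51A, DMC1A and DMC1B, which pair broken DNA with its homologue, and COM1, which trims DNA ends. RAD51A had 280 and 57 counts in fertile anthers and 327 and 145 in sterile anthers, at YM and LpM. It had less at LpM in both genotypes, with a log2 change of -2.49 (-2.95 to -2.10) in fertile and -1.05 (-1.34 to -0.77) in sterile anthers. The log2 fold-change, fertile over sterile, at LpM was -1.34 for RAD51A, -1.37 for DMC1A, -1.50 for DMC1B and -1.37 for COM1, with intervals below 0. Counts were low at LpM, with 6 in fertile and 17 in sterile anthers for COM1, 13 and 35 for DMC1A, and 21 and 61 for DMC1B. The interval of COM1 was thus wide, -3.14 to -0.10.

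DMC1A was also 2-fold different at YM, at -1.0 (-1.76 to -0.34), with 25 counts in fertile and 64 in sterile anthers. From YM to LpM the median of the list was -0.69 in fertile and -0.73 in sterile anthers, and 9 and 6 of the 11 intervals lay below 0, against 25.8% and 18.6% of all expressed genes, with 0 above in either genotype. None of the 11 genes was abundant. In sterile anthers 2 of the 11 lay above 0, with intervals that include 0. They were RAD51B at 0.32 (-0.13 to 0.78) and MSP1-like1 at 0.03 (-0.73 to 0.78). Os02g0517531, at 0.41 there, had an interval above 0, which none of the 11 had. The tables give 7 more genes of the list by their full names, such as MEIOSIS ARRESTED AT LEPTOTENE 1. With them, the 18 genes had medians of -0.12 for YM and -0.31 for LpM. At LpM all 18 lay below 0, against 12633 of 24543 expressed genes. At least 2-fold higher were 0 and lower 5, against 6.58% and 4.45%. Intervals of 0 lay above 0 and of 8 below, against 22.2% and 20.8%. This longer list was made once the row names were known. Its medians from YM to LpM were -0.80 in fertile and -0.68 in sterile anthers.

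Other RNA-binding proteins were matched in 14 rows, all expressed. Their median log2 fold-change, fertile over sterile, was -0.22 at YM and -0.05 at LpM, on the other side of 0 from Os02g0517531 at YM. The list was split at YM, with 6 genes above 0 and 8 below. Intervals of 4 lay above 0 and of 6 below, against 24.1% and 17.5% of expressed genes. Among abundant genes, a class that holds 6 of the 14, the shares were 60.9% and 16.5%. At YM 0 were at least 2-fold higher and 2 at least 2-fold lower in fertile anthers, against 4.24% and 8.21% of all expressed genes. Of these, GLYCINE-RICH RNA-BINDING PROTEIN 5, of a family of small RNA chaperones, had 386 and 681 counts in fertile anthers and 1011 and 804 in sterile anthers, at YM and LpM. It had a log2 fold-change of -1.06 (-1.23 to -0.89) for YM and -0.25 (-0.40 to -0.10) for LpM. The other, GLYCINE-RICH RNA-BINDING PROTEIN 2, had 0 and 2 counts at YM, too few for a fold. Without it 1 of 13 was at least 2-fold lower, near the background, and the medians were -0.22 at YM and -0.07 at LpM. RNA-binding protein of the Puf family member 4, from a family that represses mRNAs, was picked after values were seen. It had 0.49 at YM (0.32 to 0.66) and -0.09 at LpM (-0.25 to 0.06). Its stage change was -0.12 (-0.28 to 0.05) in fertile and 0.47 (0.30 to 0.64) in sterile anthers.

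Markers of the tapetum, the nurse layer that feeds the microspores, were also higher in fertile anthers at YM. Of 11 tapetum genes sought, 10 were matched to a row, and all 10 had reads in each library. Their summed level was 9264 CPM at YM and 12214 at LpM in fertile anthers, and 5139 and 10628 in sterile anthers. The sum is mostly that of a few abundant genes, such as CYP704B2 with 2867 and 4756 CPM in fertile and 1539 and 3517 in sterile anthers. UNDEVELOPED TAPETUM 1 had 3.72 to 6.24 CPM. At YM the intervals of 9 of the 10 lay above 0 and 0 below, against 24.1% and 17.5% of expressed and 60.9% and 16.5% of abundant genes, a class that holds 7 of the 10. Their median log2 fold-change at YM was 0.60. At LpM 6 intervals lay above and 4 below 0, against 22.2% and 20.8% of expressed and 37.3% and 33.7% of abundant genes, with a median of 0.12. The medians of the stage change were 0.01 in fertile and 0.39 in sterile anthers. CYP703A3, which hydroxylates fatty acids for the pollen wall, had 30894 and 29630 counts in fertile anthers and 17209 and 28841 in sterile anthers. Its changes from YM to LpM were -0.28 (-0.30 to -0.25) in fertile and 0.87 (0.84 to 0.89) in sterile anthers, the same signs as those of Os02g0517531. It was picked after values were seen, and it was the only 1 of the 10 with both intervals in these directions. With both intervals off 0, 4 of the 10 were higher at LpM in both genotypes, such as MALE STERILITY 2 at 1.05 and 1.71, and 2 were lower in both, such as TAPETUM DEGENERATION RETARDATION at -0.85 and -0.20. The other 3 had an interval that includes 0. The part of these markers in the pattern of Os02g0517531 was not tested. Of the rows with pollen words in their names, 1 of 2 had reads, pollen-specific protein SF21, with 37.2 to 43.0 CPM per library. This row alone does not give the pollen content, and the study reports a late pollen gene as far higher in fertile anthers. No row matched the words sought for green tissue.

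**Figure D5:**
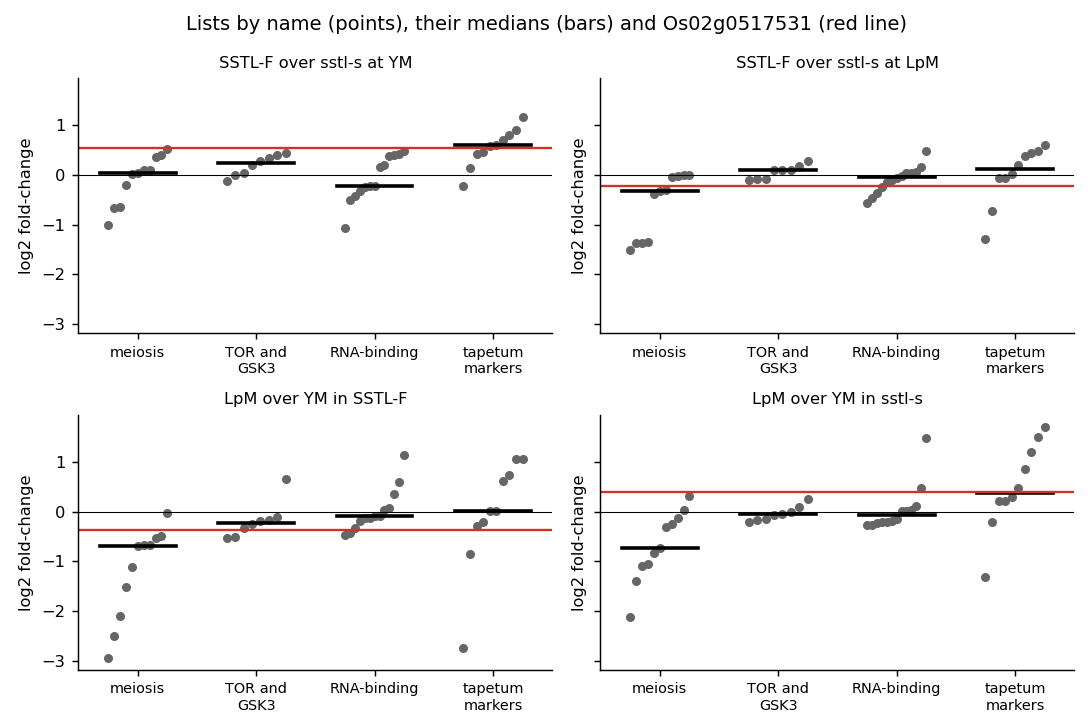
Log2 fold-change of the genes of 4 lists (points, genes with reads in all 4 libraries), the median of each whole list (black bars) and Os02g0517531 (red line) in the 4 contrasts. The red line is at 0.55 at YM, near the tapetum median of 0.60, and at 0.41 in *sstl-s*, above the meiosis median of -0.73.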

How the data were processed

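Total RNA of anthers, taken up in TRIzol, was read as single-end libraries on an Illumina HiSeq instrument, 1 library per genotype and stage. CLC Genomics Workbench and the RAP-DB annotation were used by the authors for the read processing. The mapping settings, the build and any use of strand are not given in the sources used here. The authors deposited a total read count per gene, which is the basis of the results. RPKM and TPM columns were made and deposited by the authors and used for levels per length. The deposited CPM column was treated as a score, because its totals differ between libraries, and was not used further.

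Counts were scaled with TMM over all genes (edgeR 4.0.16, R 4.3.3), and log2 fold-changes used a prior count of 1. With 1 library per group no model was fitted and there are no p-values. The 95% intervals are Clopper-Pearson (exact), from the shares of reads, or a Poisson approximation for the difference of log2 changes, and cover counting error only. Total counts of 10161675 to 11559430 put the floor of 3 counts at 0.260 to 0.295 CPM, before TMM scaling. The log2 fold-changes and their exact intervals were run on simulated Poisson counts scaled by library size only. That run does not test the TMM scaling, the other steps or the spread between plants.

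The genes named were those of the rule, the 5 named rows nearest in profile, and list genes at least 2-fold different between genotypes, with additions named as such. The lists and markers were matched in row names. The gene, lists and markers were chosen with earlier results of these data known. No sequence is shown, because the reference used here was a table of gene names. Alternatives were library size only, size factors (DESeq2 1.42.0), quantile normalization, other prior counts (0.25 or 5), log2(RPKM + 1), TMM from expressed genes, a minimum of 50 counts in 1 library, and no filter. TMM per stage, values measured from abundant genes and the longer meiosis list were added with the data in view. Python 3.11.15 (pandas 2.3.3, numpy 2.4.6, matplotlib 3.10.9, scipy 1.17.1) ran the other steps.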

Additional observations from a re-analysis of the deposited data

Results flagged for a closer look

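Os02g0517531 had opposite changes from YM to LpM in the genotypes, lower in *SSTL-F* and higher in *sstl-s*, with a difference of -0.77 on the log2 scale. With 1 library per group this difference was not tested. The 5 named genes chosen for the nearest profile had the same opposite signs, with differences of -0.67 for aberrant growth and death2, -0.62 for ALLENE OXIDE CYCLASE, -0.65 for Ferrochelatase 1, -0.75 for SERINE CARBOXYPEPTIDASE 49 and -0.56 for Sec14-nodulin domain-containing protein 4. These were not tested either, and the likeness is how they were chosen.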

How the results depend on the processing

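The signs of the 4 log2 fold-changes of Os02g0517531 and of the difference between genotypes were kept under each alternative run, and the sizes moved. The range was 0.26 to 0.55 at YM, -0.45 to -0.20 at LpM, -0.41 to -0.20 from YM to LpM in *SSTL-F*, 0.14 to 0.42 in *sstl-s* and -0.82 to -0.54 for the difference. With library size only, the values were 0.41 at YM, -0.27 at LpM, 0.35 in *sstl-s* and -0.68 for the difference, and the median of all expressed genes moved by -0.14 at YM. Quantile normalization gave 0.26 at YM, -0.28 at LpM, 0.14 in *sstl-s* and -0.54 for the difference. The deposited RPKM gave 0.37 at YM and -0.45 at LpM, where the median of all expressed genes moved by -0.14 and -0.18. TMM per stage gave 0.50 at YM. Measured from abundant genes, the values were 0.38 at YM, -0.20 in *SSTL-F* and -0.62 for the difference. The other values, with DESeq2 size factors, the other prior counts and TMM from expressed genes, differed by less than the counting error. The cause of these moves was not tested.

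The background counts moved more. At YM, 1040 genes were at least 2-fold higher and 2014 lower in *SSTL-F*, and at LpM 1615 and 1092. From YM to LpM, 2937 were higher and 1214 lower in *SSTL-F*, and 1813 and 1108 in *sstl-s*. With the deposited RPKM the numbers were 232 and 927, 435 and 465, 1364 and 607, and 769 and 353, in the same order. With at least 50 counts in 1 library they were 477 and 918, 794 and 486, 1555 and 744, and 963 and 455. Without a filter they were 2211 and 3095 at YM, 2543 and 1902 at LpM, 2330 lower in *SSTL-F*, and 2722 and 1861 in *sstl-s*. A prior count of 5 gave 657 higher at YM, 650 lower at LpM and 733 lower in *sstl-s*. Fewer genes tested, or a pull of low counts towards 0, is built into the filter and the prior count, and the cause for RPKM was not tested. Leaving out a replicate was not possible with 1 library per group. No paired analysis was possible because each group has 1 library. Depth limits rows such as Os02g0517564, with 4 to 17 counts.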
